A study of Homo sapiens with 8 samples.

Results

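ABL1 and ABL2 are non-receptor tyrosine kinases of the ABL family, which relay signals from growth factor receptors and integrins to the actin cytoskeleton and are known for the oncogenic fusion of ABL1 in leukaemia. The comparison described here is between 1 sample of LM2 cells carrying short hairpin RNAs (shRNAs) against both ABL1 and ABL2 and 1 sample of LM2 cells carrying a scrambled shRNA, out of 8 samples in the series. LM2 cells were derived from the triple-negative breast cancer line MDA-MB-231 by selection for growth in the lung, and an shRNA lowers the mRNA it is designed against. Samples were taken by their labels, and each of the 2 groups held 1 sample, so there was no replicate check and no p-value is given. Of 58688 genes in the count files, the 12206 with at least 50 counts in either sample were measured. The study used the knockdown to ask whether ABL, a target of the kinase inhibitor Ponatinib, mediated the response of these cells to that drug.

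All shRNA cells were LM2 cells exposed for 48 h to lentivirus in 8 µg/mL polybrene and then selected with puromycin, so the scrambled sample shares the virus, the selection and the presence of a hairpin with the knockdown. A single hairpin construct was used against each gene. The other shRNA samples carried the ABL1 hairpin or the ABL2 hairpin alone, 1 sample each, and the remaining samples were untransduced LM2 cells given the solvent DMSO or 1 µM Ponatinib for 6 h, 2 repeats each. Read counts on genes summed to 11610339 in the scrambled sample and 12013861 in the ABL1/ABL2 sample, within a range of 7568934 to 13010896 over the series. Levels are given as CPM, a gene's counts scaled to 1000000 counts on genes, on which 3 counts correspond to 0.258 in the scrambled and 0.250 in the ABL1/ABL2 sample. Header cells inside the scrambled and ABL1 files named each other's condition, and the ABL1 level given next went with the labels. Markers of the line were present, with VIM at 2297 CPM and AXL at 587 CPM in the scrambled sample, while the hormone receptor genes ESR1 and PGR were at 0.689 and 0 CPM and CDH1 (E-cadherin) at 0.344 CPM. In the ABL1/ABL2 sample CDH1 was higher, at 1.66 CPM (20 counts against 4 in the scrambled sample). ERBB2 at 63.8 CPM and CD24 at 26.3 CPM, which are low in this line, were detected. Of 21 markers of other cell types, 4 in the scrambled and 5 in the ABL1/ABL2 sample had no count, with the T cell gene CD3E and the muscle gene MYOD1 at 0 in both. The list summed to 446 and 203 CPM, of which COL1A1, a fibroblast marker, made up 398 and 140.1 CPM. Some other fibroblast markers were low and moved with it, COL3A1 from 42 counts to 0, LUM from 7 to 0 and DCN from 4 to 1. The stromal markers PDGFRB (89 and 85 counts) and ACTA2 (13 and 15 counts) did not fall with it. The monocyte gene CD14 was at 2.76 and 7.24 CPM and LYZ, also a monocyte gene, had 2 and 17 counts. The leukocyte gene PTPRC had 3 counts and 1 count. The endothelial gene PECAM1 had 233 and 393 counts, whereas the endothelial genes KDR (66 and 45) and VWF (12 and 11) were not higher. The glial gene GFAP had 35 and 72 counts. The part of other cells in the results was not tested.

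Both targeted genes were lower in the double knockdown, and both were less reduced there than in the single knockdown of the same gene. ABL1 (ENSG00000097007, chr9:130713043-130887675 of GRCh38, plus strand) was at 186 CPM in the scrambled sample, 72.6 in the ABL1, 205 in the ABL2 and 111 in the ABL1/ABL2 shRNA sample. In the double knockdown this was 59.5% of the scrambled level, a log2 ratio of -0.75 (95% counting interval -0.85 to -0.65), against 39.0% in the single ABL1 knockdown. ABL2 (ENSG00000143322, chr1:179099330-179229684, minus strand) was at 231, 212, 94.5 and 149 CPM in the same order, so that the double knockdown held 64.6% of the scrambled level (log2 ratio -0.63, -0.72 to -0.54) and the single ABL2 knockdown 40.8%. Intervals here and below are exact binomial intervals of the count ratio and cover counting error only, since the reads carry no molecular identifiers. Neither target passed the 2-fold limit by which genes are said below to have risen or fallen.

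**Figure D1:**
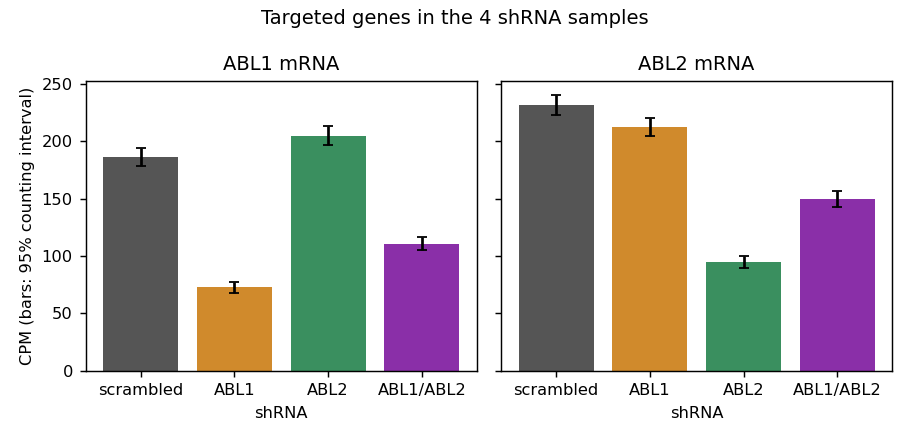
CPM (y axis) of ABL1 and ABL2 in the 4 shRNA samples (x axis), 1 sample per bar, with 95% Wilson counting intervals. The double knockdown bar stands between that of the single knockdown of the same gene and the scrambled bar, at 111 CPM for ABL1 and 149 CPM for ABL2.

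Across the transcriptome, 257 genes (2.11% of those measured) rose at least 2-fold and 177 (1.45%) fell, together 3.56%. The standard deviation of the log2 ratio was 0.44 and its median 0.04. The only repeats in the series were 2 DMSO samples, with 4 of 12311 genes (0.0325%) past 2-fold and a standard deviation of 0.17, and 2 Ponatinib samples, with 31 of 12168 genes (0.255%) and 0.21. These pairs are not shRNA lines and do not measure how separate transductions vary. Rises made up 59.2% of the calls with counts scaled to the library total and 48.3% with scaling to the upper quartile of counts, which gave 202 rises and 216 falls. For 85 of the risen and 71 of the fallen genes the counting interval lay wholly past 2-fold. The count minimum itself fixed the direction of some calls: 112 of the risen genes had under 50 scrambled counts and entered only through the double knockdown, and 58 of the fallen had under 50 counts in the double knockdown and entered only through the scrambled sample. Among the list members named below, these were NR4A1, FOS, CX3CL1, FAS, HLA-F, SNAI1, CD14 and ADAM12 of the risen and CCL20 and CLDN1 of the fallen.

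The scrambled library stood apart from the other shRNA samples. It was at least 2-fold above each of the other 3 in 62 of the 12206 measured genes and below each of them in 79. The same counts were 10 and 17 for the ABL2 and 1 and 6 for the ABL1 shRNA sample. The ABL1/ABL2 sample, which shares a hairpin with each single knockdown, stood apart in 1 gene, the hair keratin gene KRT83. Genes were measured by their counts in the scrambled and ABL1/ABL2 samples only. A gene high in a single knockdown and under the minimum in both of these was left out. This holds down the counts of genes above the others for the ABL1 and ABL2 shRNA samples. With the ABL1 shRNA sample as reference in place of scrambled, the double knockdown had 14 genes higher (0.114% of 12230) and 12 lower (0.0981%), 0.213% in all. With the ABL2 shRNA sample as reference it had 66 higher (0.537% of 12287) and 76 lower (0.619%), 1.16% in all. Every ratio to scrambled rests on 1 control library, which all the knockdowns share, and a deviation of that library and an effect of the hairpins cannot be told apart. CPM values are therefore listed below in a fixed order: scrambled, ABL1 shRNA, ABL2 shRNA, and both. The level in the double knockdown lay between those of the single knockdowns for 52.5% of risen, 55.4% of fallen and 53.6% of all measured genes.

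**Figure D2:**
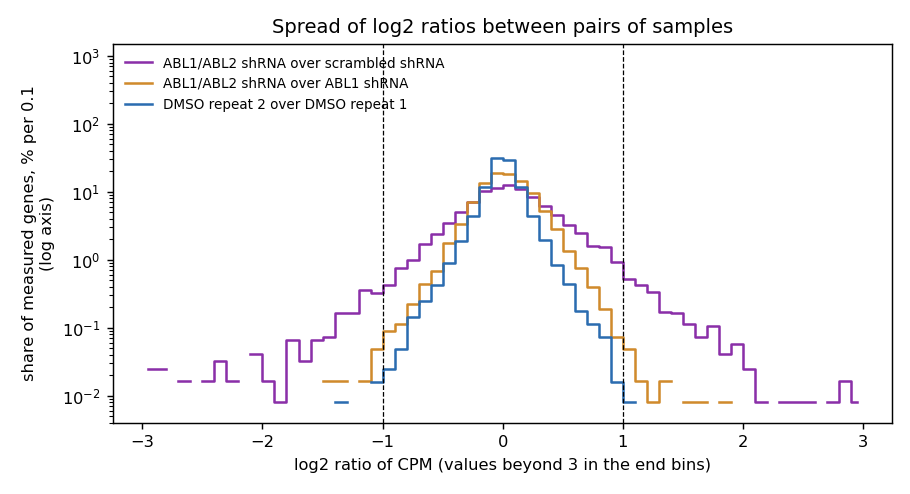
Share of measured genes per 0.1 of log2 ratio (y axis, log scale) against the log2 ratio of CPM (x axis) for 3 pairs of samples, with dashed lines at 2-fold. The curve of ABL1/ABL2 over scrambled is the broadest (standard deviation 0.44), and the curve over the ABL1 shRNA sample (0.24) lies closer to that of the DMSO repeats (0.17).

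The lowest ratio was that of SNCAIP. SNCAIP, which encodes a synuclein-interacting protein, was at 5.77, 0.307, 0.482 and 0.250 CPM, and its log2 ratio of -4.53 (-6.84 to -2.92) rests on 3 counts in the double knockdown against 67. CCN5, a matricellular protein gene, was at 27.5, 3.69, 1.12 and 2.91 CPM (-3.24, -3.78 to -2.73). BMF, a pro-apoptotic BH3-only member of the BCL2 family, was at 53.3, 7.69, 11.6 and 7.16 CPM (-2.90, -3.24 to -2.57) and was the only one of 13 measured family members past 2-fold. The scrambled sample was the high one for each of these genes, and all knockdowns lay below it, with CCN5 lowest in the ABL2 shRNA sample. LOXL4, a lysyl oxidase that crosslinks collagen, was at 175, 36.1, 14.1 and 27.1 CPM (-2.69). The imprinted, retrotransposon-derived gene PEG10 was at 528, 65.1, 179 and 100 CPM (-2.40), and UGCG, which makes glucosylceramide, at 481, 131, 145 and 102 CPM (-2.23). Complement genes were among the 15 lowest: C1S, a protease of the classical pathway, was at 47.1, 13.8, 16.5 and 9.74 CPM (-2.27), and C4A and C4B had ratios of -2.42 and -2.31 but are near-identical copies between which reads cannot be assigned with certainty. The copper carrier gene CP (ceruloplasmin, -3.14), FILIP1L (-2.83), the meiosis gene SHOC1 (-2.81) and the glutamate transporter gene SLC1A3 (-2.08) completed the set with CXCL8 and MMP2, described below. SNCAIP, CCN5, CP, SHOC1, C4A and C4B had under 50 counts in the double knockdown, so the count minimum fixed their direction.

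Untransduced cells did not share the scrambled level of these genes. In the DMSO repeats BMF was at 0.521 and 0.697 CPM, CCN5 at 0.174 and 0, LOXL4 at 7.04 and 8.16, PEG10 at 179 and 172 and UGCG at 172 and 159. For BMF, CCN5 and LOXL4 both DMSO samples were below all 4 shRNA samples, and for UGCG both lay between the knockdowns and the scrambled sample. The untransduced cells differ from the shRNA lines in virus and selection as well as in the hairpin, and the 2 sets are given side by side only.

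Among the largest losses in CPM were also HEG1, a membrane mucin-like gene, at 517, 189, 257 and 205 CPM (-1.34), RTN4, which shapes the endoplasmic reticulum, at 544, 194, 532 and 258 CPM (-1.08), and TXNIP, an inhibitor of thioredoxin, at 492, 320.4, 228 and 239.6 CPM (-1.04). RTN4 was near its scrambled level with the ABL2 hairpin and lower in both samples that carried the ABL1 hairpin. HEG1 and TXNIP were lower in all 3 knockdown samples.

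The highest ratio was that of LGR5. LGR5, a stem cell receptor for R-spondins, was at 1.98, 19.1, 6.58 and 14.8 CPM (log2 ratio 2.90, 2.27 to 3.60). Gel-forming mucin genes, which lie together on chromosome 11, rose: MUC5AC was at 52.6, 337, 114 and 307 CPM (2.55), MUC5B at 172, 671, 355 and 585 CPM (1.77) and MUC2 at 1.64, 8.69, 1.36 and 7.08 CPM (2.11). Both untransduced DMSO samples were below all 4 shRNA samples, scrambled included, for each of these mucins. MUC5AC was at 7.39 and 12.04 CPM there, MUC5B at 3.48 and 3.78 and MUC2 at 0.0869 and 0. In all 3 mucins the ABL1 and double knockdown samples were the high ones, and the ABL2 sample was lower. IL11, a cytokine of the IL6 family, had the same order at 24.8, 162, 25.0 and 139.8 CPM (2.49). For IL11 both DMSO samples (78.6 and 80.8 CPM) lay between the scrambled sample and the double knockdown. Others were high in every knockdown, among them NOX5, a calcium-activated NADPH oxidase, at 26.3, 76.7, 119 and 108 CPM (2.03), CFP, which encodes the complement regulator properdin, at 2.41, 16.4, 13.7 and 17.9 CPM (2.89) and PTGES, which makes prostaglandin E2, at 143, 416, 391 and 462 CPM (1.69). KRT83 was at 1.64, 3, 3.13 and 10.9 CPM (2.74, 2.04 to 3.51) and was the only measured gene in which the double knockdown stood at least 2-fold from each other shRNA sample. In the DMSO repeats KRT83 was at 8.95 and 9.75 CPM, between the double knockdown and the remaining shRNA samples. Its reads may be shared with related hair keratin genes such as KRT81. Among the largest gains in CPM, CD82, a tetraspanin, was at 135, 335, 354 and 378 CPM (1.49), and MARCKSL1, a membrane protein that binds actin, at 239, 515, 496 and 567 CPM (1.24). The netrin receptor gene UNC5B (2.37), the scavenger receptor gene DMBT1 (1.98), the xenobiotic enzyme gene CYP1A1 (2.01), ACOX2 (2.04), PLB1 (1.95), LRRIQ1 (1.95) and SETBP1 (1.92) were the others of the 15 highest, with ADAM12, described below. Apart from MUC5AC, IL11, NOX5 and DMBT1, the 15 highest (11 genes, LGR5 among them) had under 50 scrambled counts. The count minimum therefore fixed the direction of these 11.

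**Figure D3:**
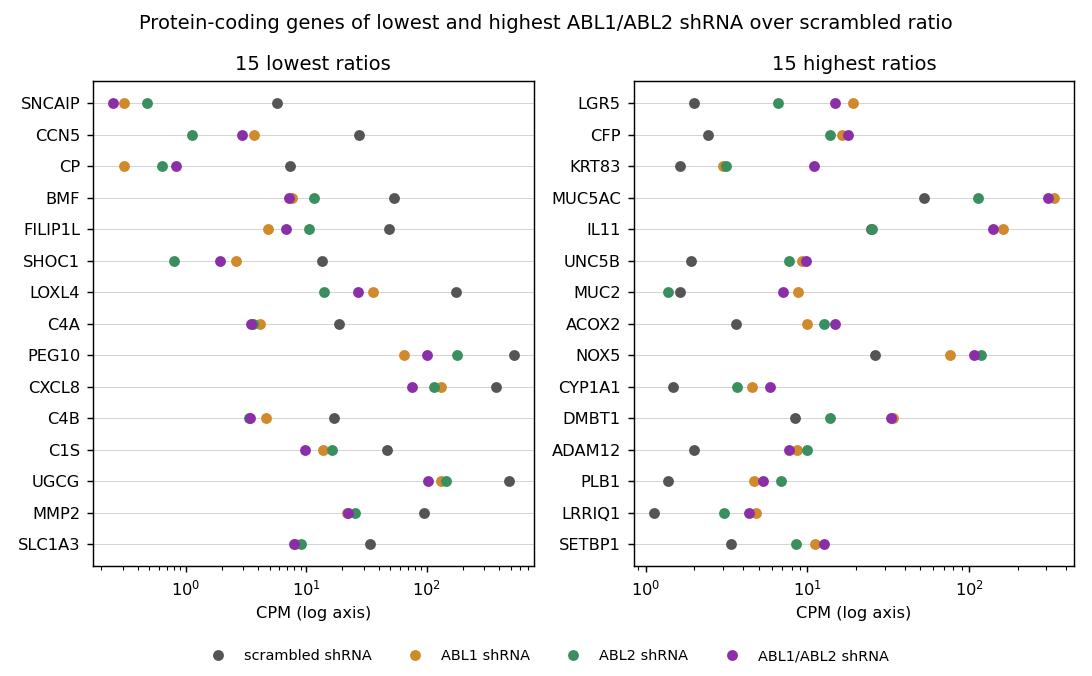
CPM (x axis, log scale) in the 4 shRNA samples, 1 point per sample, for the 15 protein-coding genes with the lowest (left) and the 15 with the highest ratio (right). The scrambled point is the highest of the 4 for all 15 on the left and the lowest for 14 of 15 on the right, the exception being MUC2. The genes were chosen by their ratio to this same scrambled value, and 11 of those on the right and 6 of those on the left passed the count minimum in 1 of the 2 samples only, so this position is largely set by the choice.

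Gene lists were described by the members past 2-fold and by the median log2 ratio, to be read against 2.11% risen, 1.45% fallen, a median of 0.04 and 54.7% above 0 over all measured genes, of which 3662 had a counting interval wholly above 0 and 2873 wholly below. Of 44 lists, chemokines and cytokines under NF-kB had the lowest median (-0.52 over 14 genes), followed by cholesterol synthesis and uptake (-0.50 over 25) and YAP and TEAD targets (-0.50 over 24). With a minimum of 200 counts the chemokine median was -0.33 and no longer the lowest. Mitosis and spindle genes had the highest (0.77 over 40), followed by ERK output genes (0.57 over 15), DNA replication genes (0.49 over 40) and EGF ligands and ERBB receptors (0.48 over 10).

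**Figure D4:**
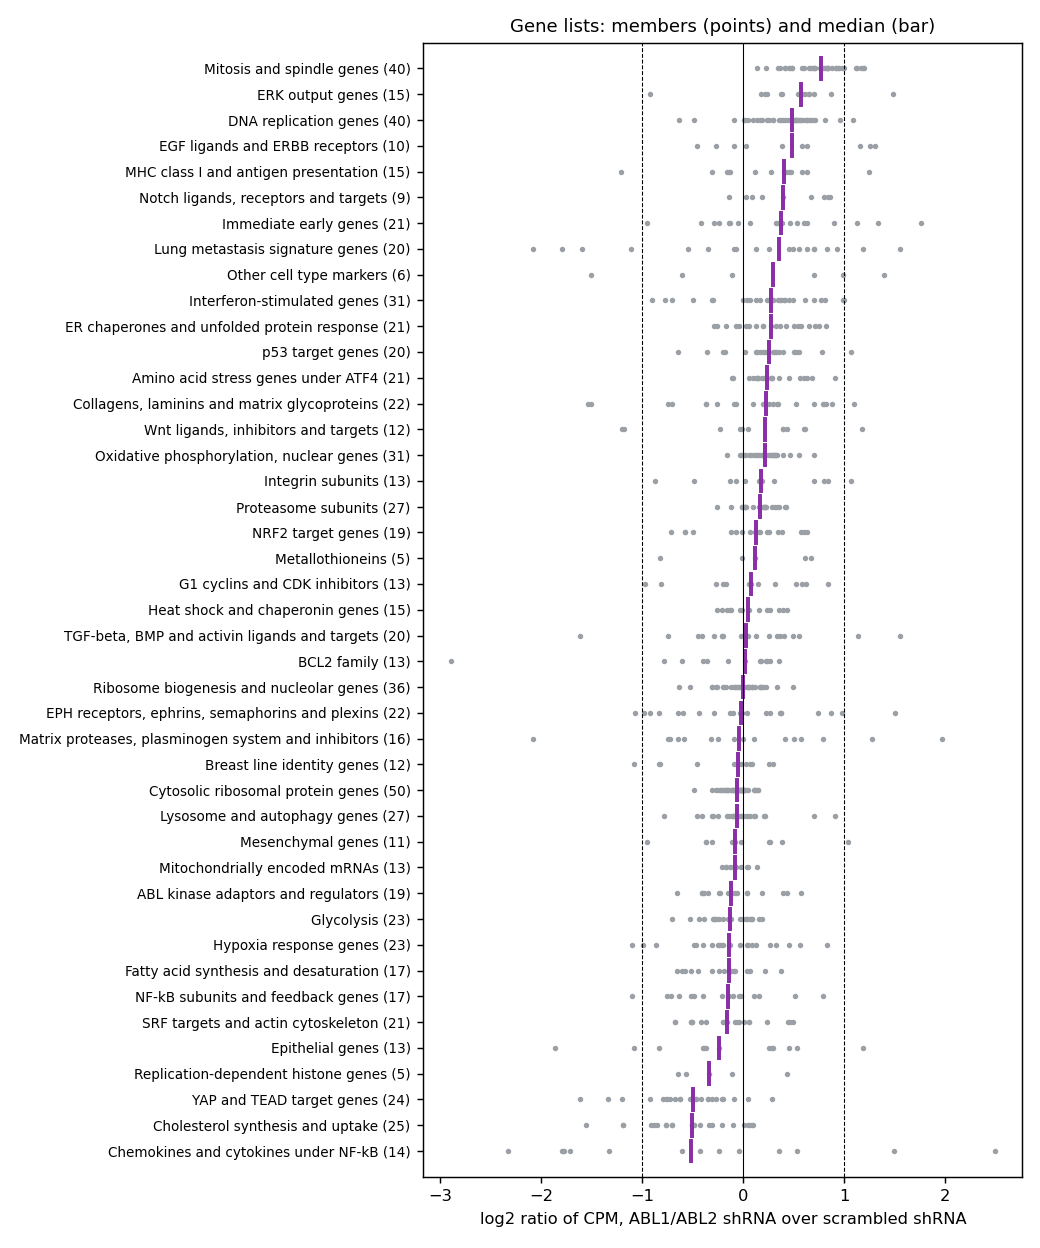
Log2 ratio of CPM, ABL1/ABL2 over scrambled shRNA (x axis), for the measured members (points) and the median (bar) of each of 43 gene lists (y axis, number of measured members in brackets), with dashed lines at 2-fold. Medians run from -0.52 to 0.77, and the mitosis list has no point below 0.

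Inflammatory chemokines fell. The chemokines CXCL1, CXCL2, CXCL3 and CXCL8 attract neutrophils, CCL20 attracts lymphocytes and dendritic cells, and IL6 is an acute-phase cytokine. Their genes are induced by NF-kB, a family of transcription factors that acts after inflammatory signals. CXCL8 was at 379, 133, 115 and 75.4 CPM, a log2 ratio of -2.33 (-2.43 to -2.23). CXCL1 was at 234, 125, 80.7 and 67.8 CPM (-1.79, -1.91 to -1.68), and IL6 at 69.3, 35.3, 26.4 and 20.2 CPM (-1.78, -1.99 to -1.57). For each of these the single knockdowns lay between the scrambled sample and the double knockdown, which was the lowest of the 4. CXCL3 (-1.78), CCL20 (-1.72) and CXCL2 (-1.33) also had their lowest level with both hairpins, at 4.41, 1.83 and 15.9 CPM. The ABL2 shRNA sample was close for CCL20 (24 counts against 22 with both hairpins) and CXCL2 (217 against 191). In all, 6 of 14 measured members fell and 2 rose, IL11 and the membrane-bound chemokine gene CX3CL1 (2.07, 6.00, 3.77 and 5.83 CPM, 1.5). Other cytokine genes did not pass 2-fold: IL1A had a ratio of -0.61, CSF2 of -0.43, CSF1 of -0.24, IL1B of -0.04, LIF of 0.35 and CSF3 of 0.53. In the DMSO repeats CXCL8 was at 25.4 and 30.4 CPM and in the Ponatinib repeats at 5.67 and 6.21 CPM. The other fallen members did not all go this way. The log2 ratio of mean CPM, Ponatinib over DMSO, was -1.59 for CXCL1, 0.00 for IL6, 0.56 for CXCL2 and 0.84 for CXCL3. CCL20 was at 0.261 and 0 CPM in the DMSO and 0 and 0.132 CPM in the Ponatinib repeats.

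The promoters of the 6 fallen members are shown because each holds the NF-kB motif searched, GGNNTTTCC on either strand. Capitals mark the matches. Each sequence is the 250 bases before the RefSeq start, read on the gene's strand of GRCh38.p14, at chr4:73740319-73740568, plus strand for CXCL8, chr4:73869143-73869392, plus strand for CXCL1, chr4:74099196-74099445, minus strand for CXCL2, chr4:74038690-74038939, minus strand for CXCL3, chr7:22726950-22727199, plus strand for IL6 and chr2:227813592-227813841, plus strand for CCL20.
CXCL8 promoter: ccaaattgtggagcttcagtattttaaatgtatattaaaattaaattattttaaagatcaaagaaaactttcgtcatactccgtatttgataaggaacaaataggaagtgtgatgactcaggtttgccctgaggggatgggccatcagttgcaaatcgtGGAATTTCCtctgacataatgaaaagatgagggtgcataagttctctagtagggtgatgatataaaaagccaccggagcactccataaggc
CXCL1 promoter: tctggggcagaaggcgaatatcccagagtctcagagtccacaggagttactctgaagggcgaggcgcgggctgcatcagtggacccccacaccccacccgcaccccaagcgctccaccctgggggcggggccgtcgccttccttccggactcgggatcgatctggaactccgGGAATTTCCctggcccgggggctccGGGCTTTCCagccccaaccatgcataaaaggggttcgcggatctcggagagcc
CXCL2 promoter: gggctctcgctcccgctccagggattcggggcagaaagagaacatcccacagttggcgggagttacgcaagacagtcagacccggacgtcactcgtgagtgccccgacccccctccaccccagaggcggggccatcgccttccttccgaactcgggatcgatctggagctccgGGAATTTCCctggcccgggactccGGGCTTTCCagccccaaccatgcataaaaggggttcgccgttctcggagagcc
CXCL3 promoter: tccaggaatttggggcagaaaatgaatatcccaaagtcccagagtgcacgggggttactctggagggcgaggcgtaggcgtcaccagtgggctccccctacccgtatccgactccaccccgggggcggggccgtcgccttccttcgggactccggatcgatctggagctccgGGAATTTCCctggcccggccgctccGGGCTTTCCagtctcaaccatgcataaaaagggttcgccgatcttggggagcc
IL6 promoter: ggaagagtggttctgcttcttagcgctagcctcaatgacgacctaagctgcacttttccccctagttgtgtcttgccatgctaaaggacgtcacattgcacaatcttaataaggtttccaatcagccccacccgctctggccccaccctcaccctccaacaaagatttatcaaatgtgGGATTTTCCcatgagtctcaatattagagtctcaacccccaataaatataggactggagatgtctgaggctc
CCL20 promoter: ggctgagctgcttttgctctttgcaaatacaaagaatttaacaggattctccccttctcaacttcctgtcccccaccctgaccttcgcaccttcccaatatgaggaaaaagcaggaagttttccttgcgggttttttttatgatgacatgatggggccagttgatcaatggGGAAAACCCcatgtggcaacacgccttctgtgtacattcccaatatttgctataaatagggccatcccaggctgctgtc
The match began 91 bases before the start in CXCL8, 72 in IL6 and 79 in CCL20. CXCL1, CXCL2 and CXCL3 are neighbouring paralogs on chromosome 4 and held a match 53 bases before the start in all 3 and a second one at 78 bases in CXCL1 and CXCL3 and 77 in CXCL2, so they are not independent examples. In windows reaching 50 bases past the start, 6 of the 10 measured members with a promoter sequence held the motif (60%), against 6.26% of all 27305 promoters and 6.67% of those of 9456 measured genes. The 4 members without a match were IL11, IL1A, IL1B and CSF2, none of which fell. CX3CL1, which rose, and CSF1, LIF and CSF3 had no promoter sequence to search. The list was assembled for known regulation by NF-kB, and a match is a description of sequence only.

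Among NF-kB subunits and feedback genes, 1 of 17 fell and 0 rose. TNFAIP3, which encodes the inhibitory enzyme A20, was at 49.0, 34.4, 28.3 and 22.8 CPM (-1.10). The adhesion gene ICAM1 (-0.71), the subunit gene RELB (-0.63) and the inhibitor gene NFKBIA (-0.40) were under 2-fold, and RELA, the main activating subunit, had a ratio of -0.10. The list median was -0.15.

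Targets of YAP and TEAD were mostly lower. YAP is a coactivator that enters the nucleus when cells spread and the actin cytoskeleton is under tension, where it acts through TEAD factors. TGFB2, a growth factor gene among these targets, was at 201, 77.1, 76.8 and 65.6 CPM, a log2 ratio of -1.62 (-1.73 to -1.5). The matricellular gene CCN1 was at 928, 401, 263 and 367 CPM (-1.34, -1.39 to -1.29), and ANKRD1, which encodes an ankyrin repeat protein, at 224, 131, 79.6 and 97.3 CPM (-1.20, -1.30 to -1.10). The scrambled sample was the highest of the 4 for all 3 genes, and the ABL2 shRNA sample was the lowest for CCN1 and ANKRD1. These 3 of 24 measured members fell and 0 rose, and 22 were below 0. CCN2, a common readout of YAP, was at 126, 85.2, 75.6 and 79.2 CPM (-0.67), and AXL, a receptor tyrosine kinase gene, at 587, 612, 336 and 552 CPM (-0.09). The list median was -0.50 in the double knockdown, -0.56 with ABL1 shRNA and -0.70 with ABL2 shRNA, all against the same scrambled sample. Genes under SRF, another transcription factor that responds to actin, had a median of -0.16 over 21 genes, with 0 past 2-fold.

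The promoters of TGFB2 (chr1:218345086-218345335, plus strand) and ANKRD1 (chr10:90921088-90921337, minus strand) are shown as those of the fallen members with a RefSeq promoter, and both hold the TEAD motif CATTCC, in capitals on either strand.
TGFB2 promoter: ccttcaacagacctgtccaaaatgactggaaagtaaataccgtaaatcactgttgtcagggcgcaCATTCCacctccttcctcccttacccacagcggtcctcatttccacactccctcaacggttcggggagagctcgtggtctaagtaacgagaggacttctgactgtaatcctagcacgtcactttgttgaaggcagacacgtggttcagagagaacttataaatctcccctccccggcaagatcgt
ANKRD1 promoter: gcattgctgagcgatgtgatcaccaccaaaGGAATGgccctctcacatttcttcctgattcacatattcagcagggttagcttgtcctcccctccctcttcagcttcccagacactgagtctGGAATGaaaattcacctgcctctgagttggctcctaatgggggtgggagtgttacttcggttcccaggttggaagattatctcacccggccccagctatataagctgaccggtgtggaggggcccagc
The motif stood in 7 of 18 promoters of the list (38.9%), 14% of all promoters and 10.7% of those of measured genes, and CCN2 was among the holders that did not pass 2-fold.

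Cholesterol genes were lower. The enzymes of cholesterol synthesis share control by the transcription factor SREBP2, which acts when sterols are low. HMGCS1, an early enzyme of the pathway, was at 205, 95.4, 80.0 and 69.8 CPM, a log2 ratio of -1.55 (-1.67 to -1.44). DHCR7, a late enzyme, was at 165, 62.3, 93.2 and 72.2 CPM (-1.19), and SQLE, which oxidizes squalene, at 61.2, 32.2, 31.4 and 26.9 CPM (-1.19). All 3 knockdown samples were below scrambled for these enzymes, the only members of 25 past 2-fold. In total 20 of 25 were below 0, 17 of them with a counting interval wholly below 0. Fatty acid synthesis and desaturation had a median of -0.14 over 17 genes with 0 past 2-fold, and the desaturase gene SCD was at 2225, 1876, 1816 and 1488 CPM (-0.58). The sterol motif searched, TCACNCCAC, stood in 1 of 18 promoters of the cholesterol list (5.56%), that of SREBF2. The share was 1.15% of all promoters and 1.16% of those of measured genes. The promoters of HMGCS1 and DHCR7 did not hold it.

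Mitotic genes were higher than in the scrambled sample. All 40 measured members of the list were above 0, each with a counting interval wholly above 0, and 6 rose. ANLN (anillin of the cleavage furrow) was at 175, 384, 318 and 399.7 CPM, a log2 ratio of 1.19 (1.12 to 1.27). ESPL1 (separase) was at 61.3, 129, 75.9 and 139.7 CPM (1.19), CDC20, an activator of the anaphase-promoting complex, at 83.1, 172, 89.7 and 187 CPM (1.17) and CCNB1 (cyclin B1) at 182, 427, 210.0 and 397 CPM (1.12). Apart from ANLN, the ABL2 shRNA sample stood near the scrambled one in these genes, and the ABL1 and double knockdown samples were high. The kinase gene NEK2 (58.2, 129, 71.2 and 126 CPM, 1.12) had the same order, as did the ubiquitin-conjugating enzyme gene UBE2C (94.2, 209.8, 105 and 189 CPM, 1.0025), which was under 2-fold with each of the 3 other scalings. The checkpoint gene BUB3 (0.14) was the lowest of the list, and the topoisomerase gene TOP2A (0.71), CDK1 (0.78) and PLK1 (0.94), the main mitotic kinases, were under 2-fold. The list median was 0.77 in the double knockdown, 0.74 with ABL1 shRNA and 0.14 with ABL2 shRNA against scrambled, and the double knockdown had a median of 0.00 over the ABL1 and 0.66 over the ABL2 shRNA sample. These medians share samples and are given side by side only. In the untransduced DMSO repeats all 6 risen genes were above their scrambled level. ANLN was at 533 and 513 CPM, CCNB1 at 449 and 429, CDC20 at 233 and 228 and UBE2C at 245 and 235, above the double knockdown. ESPL1 (115 and 118 CPM) and NEK2 (105 and 111 CPM) lay between scrambled and the double knockdown.

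ESPL1 (chr12:53268049-53268298, plus strand) and CDC20 (chr1:43358731-43358980, plus strand) are shown as risen members whose promoters hold both elements known from mitotic genes, the cell cycle homology region (CHR, TTTGAA) and the CCAAT box (CCAAT), in capitals on either strand.
ESPL1 promoter: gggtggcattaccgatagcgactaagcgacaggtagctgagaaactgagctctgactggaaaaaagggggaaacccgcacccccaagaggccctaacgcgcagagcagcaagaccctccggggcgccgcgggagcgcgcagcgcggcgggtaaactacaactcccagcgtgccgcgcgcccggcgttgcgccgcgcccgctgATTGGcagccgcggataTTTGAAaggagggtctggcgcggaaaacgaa
CDC20 promoter: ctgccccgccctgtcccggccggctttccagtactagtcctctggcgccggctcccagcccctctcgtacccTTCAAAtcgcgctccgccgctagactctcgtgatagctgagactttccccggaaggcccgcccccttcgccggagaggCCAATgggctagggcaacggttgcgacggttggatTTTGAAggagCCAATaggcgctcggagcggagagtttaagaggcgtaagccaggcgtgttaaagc
The CHR match nearest the start began 31 bases before it in ESPL1 and 65 in CDC20. In the list, 23 of 34 promoters held the CHR (67.6%), against 15.4% of all promoters and 9.55% of those of measured genes. CCAAT was in 25 of 34 (73.5%), against 35.7% of all and 37.2% of measured genes. It was not particular to this list, with 83.3% of the cholesterol, 58.8% of the DNA replication, 50% of the chemokine and 22.2% of the YAP and TEAD promoters. The CHR was in 3 of 5 risen and 20 of 29 other members, and in 13.5% of the 178 risen genes of all kinds with a promoter sequence.

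**Figure D5:**
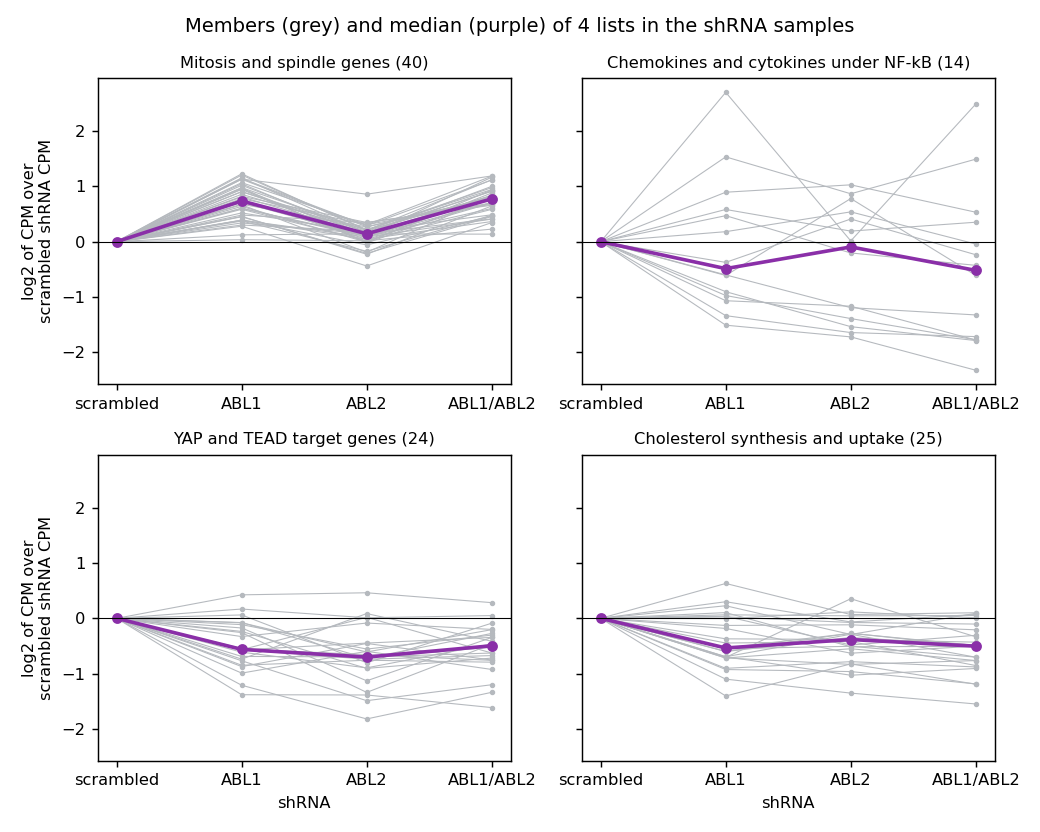
Log2 of CPM over the scrambled CPM (y axis) in the 4 shRNA samples (x axis) for the members (grey) and the median (purple) of 4 lists, all 0 at scrambled by construction. The mitosis median is 0.74, 0.14 and 0.77 in the ABL1, ABL2 and double knockdowns, and the YAP and TEAD median is -0.56, -0.70 and -0.50.

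DNA replication genes were also mostly higher. Of 40, 37 were above 0 and 1 rose, the licensing factor gene CDT1 (24.6, 56.0, 30.2 and 52.4 CPM, 1.09). MCM4, a subunit of the replicative helicase, was at 88.9, 178, 146 and 173 CPM (0.96), whereas MCM6, another subunit, was at 69.5, 38.7, 76.0 and 44.6 CPM (-0.64) and lower in both samples with the ABL1 hairpin. An E2F motif, TTTNGCGC, stood in 13 of 34 promoters of this list (38.2%), against 1.83% of all promoters and 3.09% of those of measured genes. G1 cyclins and CDK inhibitors had a median of 0.08 over 13 genes with 0 past 2-fold, and CCND1 (cyclin D1) was at 533, 807, 790.5 and 799 CPM (0.58).

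ERK output genes, which are transcribed when the MAP kinase ERK is active, were above 0 in 14 of 15 cases, and 1 rose. SPRY4, a feedback inhibitor of receptor tyrosine kinase signalling, was at 225, 625, 547 and 629 CPM, a log2 ratio of 1.48 (1.42 to 1.55), with all knockdowns well above scrambled. The phosphatase genes DUSP4 (723, 1166, 1005 and 1176 CPM, 0.70) and DUSP6 (239, 364, 418 and 355 CPM, 0.57) and the receptor gene EPHA2 (0.87) were under 2-fold, and EPHA4 was the member below 0 (-0.92). SPRY4 was at 285 and 298 CPM in the DMSO repeats and 27.8 and 26.4 CPM in the Ponatinib repeats, and the list median was -1.27 for Ponatinib over DMSO. The difference between the knockdown and the drug in this list was not tested.

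Some ligands of the EGF receptor rose. AREG (amphiregulin) was at 14.3, 48.3, 30.4 and 35.4 CPM (1.31, 1.04 to 1.57), EGF at 6.46, 12.9, 11.2 and 15.4 CPM (1.25) and TGFA at 39.0, 101, 75.4 and 87.2 CPM (1.16), 3 of 10 measured members of their list. EREG (epiregulin) was at 185, 410.3, 201 and 286 CPM (0.63). The receptor gene EGFR was at 393, 267, 392 and 285 CPM (-0.46), lower in both samples with the ABL1 hairpin. Of 21 immediate early genes, transcription factors and regulators that respond to stimuli within minutes, NR4A1 (2.84, 8.61, 3.21 and 9.66 CPM, 1.76), KLF2 (1.33) and FOS (1.13) rose, of which NR4A1 and FOS had 33 and 49 scrambled counts, so that the count minimum fixed their direction. JUN, the partner of FOS in AP-1, was at 202, 188, 221 and 212 CPM (0.07), JUND at 169.5, 69.9, 99.8 and 87.6 CPM (-0.95) and MYC had a ratio of -0.24.

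Genes of the lung metastasis signature moved in both directions. This signature was defined on lung-seeking derivatives of MDA-MB-231, and 20 of 21 members were measured, with a median of 0.35. MMP2, a gelatinase, was at 95, 22.0, 25.6 and 22.4 CPM, a log2 ratio of -2.08 (-2.28 to -1.89). NEDD9, an adhesion scaffold, was at 17.6, 6.76, 4.74 and 5.83 CPM (-1.59), and MAN1A1, a mannosidase, at 48.4, 25.3, 22.2 and 22.5 CPM (-1.11). With CXCL1 these were the 4 that fell. ID1, an inhibitor of differentiation factors, was at 43.2, 88.9, 119.5 and 127 CPM (1.55, 1.4 to 1.70) and KRT81 at 159.7, 302, 253 and 364 CPM (1.19), the 2 that rose. The 14 other members lay between -0.55 for PTGS2, a prostaglandin synthase, and 0.93 for the adhesion gene VCAM1. MMP1, a collagenase, was at 64.9, 71.4, 83.3 and 60.9 CPM (-0.09), TNC (tenascin C) at 99.6, 147, 156 and 162 CPM (0.70) and ANGPTL4, which loosens endothelial junctions, at 18.5, 32.1, 27.1 and 32.9 CPM (0.83). RARRES3 (PLAAT4 in the annotation), known as a suppressor of lung metastasis, was at 6.37, 5.15, 7.39 and 4.99 CPM, with an interval that spanned 0 (-0.87 to 0.16). The matrix gene SPARC had a ratio of -0.07, ID3 of 0.26, the actin bundler gene FSCN1 of 0.45, the decoy receptor gene IL13RA2 of 0.50 and LTBP1, which binds latent TGF-beta, of 0.56. KYNU had a ratio of 0.13 and LY6E of 0.70.

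Matrix and protease genes split. THBS1 (thrombospondin 1) was at 747, 285, 213 and 258 CPM (-1.53) and COL1A1 (collagen I) at 398, 98.8, 229 and 140.1 CPM (-1.51), whereas LAMB3, a chain of laminin 332, was at 276, 605, 556 and 591 CPM (1.10). These were the members past 2-fold of 22 collagens, laminins and matrix glycoproteins. The fibroblast marker COL3A1, under the count minimum, went with COL1A1 at 42, 3, 7 and 0 counts. The stromal marker PDGFRB did not, at 89, 89, 106 and 85 counts. The part of other cells in the fall of COL1A1 was not tested. Genes of the ADAM metalloproteases moved both ways: ADAM12 (1.98, 8.61, 9.87 and 7.74 CPM, 1.97), ADAM19 (80.3, 175, 245 and 195 CPM, 1.28) and ADAM8 (196, 394, 552 and 407 CPM, 1.05, and 0.97 with upper quartile scaling) rose, and ADAM9 fell (398, 138, 289.8 and 176 CPM, -1.18). Of 13 integrin genes 1 rose, ITGB2 (22.7, 73.5, 28.6 and 47.7 CPM, 1.07, and 0.99 with upper quartile scaling). Adaptors and regulators of the ABL kinases had a median of -0.13 over 19 genes, with 0 past 2-fold.

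Developmental signalling lists had isolated calls. Of 12 Wnt genes, the ligand gene WNT9A (-1.20) and the secreted inhibitor gene DKK1 (138, 72.1, 37.9 and 61.2 CPM, -1.18) fell and the transcription factor gene TCF7 rose (1.18). Of 20 genes of the TGF-beta, BMP and activin pathways, TGFB2 fell and ID1 and PMEPA1, a feedback inhibitor, rose (82.9, 218, 97.7 and 182 CPM, 1.14). Among 22 genes of ephrin and semaphorin signalling, the ligand gene EFNA5 fell (-1.07) and SEMA3F rose (1.5). Of 13 epithelial genes, the tight junction gene CLDN1 (8.18, 2.54, 2.33 and 2.25 CPM, -1.86) and CD24 (-1.08) fell and KRT81 rose, and of 11 mesenchymal genes SNAI1 rose (1.04, but 0.96 to 0.99 with the 3 other scalings) while VIM had a ratio of -0.03. The epithelial gene CDH1, under the count minimum, was at 4, 23, 2 and 20 counts. Notch genes had a median of 0.39 over 9 genes with 0 past 2-fold, the targets HES1 (0.86) and HEY1 (0.84) being the highest.

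Stress, immune and housekeeping lists had few calls. Interferon-stimulated genes had a median of 0.28 with 0 of 31 past 2-fold. Antigen presentation had a median of 0.40 over 15 genes, with HLA-F risen (4.13, 7.38, 7.47 and 9.82 CPM, 1.25) and the peptidase gene ERAP1 fallen (106, 37.8, 111 and 45.7 CPM, -1.21), the latter low in both samples with the ABL1 hairpin and near scrambled with the ABL2 hairpin. The death receptor gene FAS rose (1.07, and 0.99 with upper quartile scaling) among 20 p53 targets, and ADM (adrenomedullin) fell (-1.10) among 23 hypoxia genes. Nuclear genes of oxidative phosphorylation were above 0 in 28 of 31 cases, and 25 with upper quartile scaling, with a median of 0.22. Lists without a member past 2-fold also included amino acid stress genes under ATF4 (0.23 over 21), the unfolded protein response (0.28 over 21), proteasome subunits (0.17 over 27), NRF2 targets (0.13 over 19), heat shock genes (0.05 over 15), glycolysis (-0.14 over 23), lysosome genes (-0.06 over 27), cytosolic ribosomal proteins (-0.06 over 50), ribosome biogenesis (0.00 over 36) and mitochondrially encoded mRNAs (-0.08 over 13).

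Risen and fallen genes differed in base content and level. The median GC content of the transcript was 54.9% for risen, 45.3% for fallen and 47.5% for all measured genes, and over 5 equal bins of GC content the median log2 ratio ran from -0.03 in the lowest to 0.13 in the highest. After the median of each GC bin was subtracted, 202 genes rose and 182 fell. Of the 257 rises, 173 were in the lowest of 5 bins of scrambled counts, where 7.08% rose and 2.54% fell. Genes with under 50 scrambled counts entered only through the double knockdown, so their ratios could not be low. By biotype, 220 risen and 158 fallen genes were protein-coding, and of 390 long noncoding RNA genes 22 rose (5.64%) and 12 fell (3.08%). The part of base content in these ratios was not tested beyond the subtraction.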

How the data were processed

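Per the methods, libraries of LM2 cells were made with the NEBNext Ultra kit and sequenced on an Illumina instrument. The authors mapped reads to hg38 with TopHat and deposited raw read counts per gene, made with HTSeq 0.6.0 per the submitters' processing notes. The strand setting and annotation release are not given in the sources used here. Rows of the counter's own summary (reads on no feature, 9.48% to 9.90% in the shRNA files, and ambiguous reads, 6.12% to 6.32%) were left out of totals. Nothing says that samples came from separate cultures.

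CPM were computed as counts scaled to 1000000 counts on genes, and ratios without a pseudocount. Genes needed 50 counts in either sample, and risen or fallen means at least 2-fold. With 1 sample per group no test was run. Intervals are exact binomial for ratios and Wilson for single levels, at 95%. The members, the 44 lists (996 of 1000 entries matched) and the rules were chosen with earlier results of these data known. Named genes were the targets, the lung metastasis signature, the 15 highest and lowest ratios and the 10 largest CPM changes in each direction among protein-coding genes, the genes in which the double knockdown stood apart, list members past 2-fold and, for lists without one, the 2 of highest scrambled level. Other list members were named after their values were seen, as pathway genes beside the calls. Some list members and 1 list are not reported here. Positions are from GENCODE 44 (54836 of 58688 IDs matched) and promoters from RefSeq (GRCh38.p14), both strands searched from 250 bases before to 50 after the start. On simulated counts for this comparison, 200 of 200 changed genes were recovered and 3 unchanged genes were called among 12076. The simulation held counting error only, and every changed gene was set well past 2-fold. It checks the computation and cannot give an error rate for the calls, since it has no variation between cultures or transductions. Scalings used edgeR 4.0.16 and DESeq2 1.42.0 in R 4.3.3, and all else Python 3.11.15 with SciPy 1.17.1.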

Additional observations from a re-analysis of the deposited data

How the results depend on the processing

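Scaling by edgeR's TMM, by DESeq2 size factors or by the upper quartile shifted the median of all genes by -0.05, -0.05 and -0.08 and left both counts within 1.5 times of 257 risen and 177 fallen genes, as did adding 5 counts and the GC subtraction, which was chosen after seeing the data. A minimum of 10 counts gave 750 risen and 481 fallen, 50 counts in both samples 145 risen and 119 fallen, 200 counts 107 and 92, and no minimum with 1 count added 2171 and 3666. Requiring the whole interval past 2-fold gave 85 and 71, a limit of 1.5-fold 1104 and 687 and of 3-fold 45 and 37. References chosen after seeing the data gave 14 and 12 (ABL1 shRNA) and 66 and 76 (ABL2 shRNA). ABL1 and ABL2 stayed within their counting intervals with all 3 scalings. List medians changed sign with the count minimum for epithelial genes (-0.24 against 0.2669 at 10 counts, 0.2527 at 50 in both and 0.2891 at 200), other cell type markers (0.29 against -0.1156 at 50 in both and -0.4011 at 200) and Wnt genes (0.22 against -0.0352 at 200, and 0.3954 at 10). The minimum of 10 counts also moved the medians of collagens and laminins (0.0153), metallothioneins (0.3599) and histones (-0.0780), and that of 200 those of matrix proteases (-0.2478), chemokines (-0.3325), Notch genes (0.1893) and ephrin and semaphorin genes (0.2422). A list holds other genes under another minimum. No paired analysis was possible because each shRNA group has 1 sample, and for the same reason no sample could be left out.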

Other observations

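EMC7, a subunit of the endoplasmic reticulum membrane complex, was at 12.3, 48.6, 42.4 and 45.6 CPM in the scrambled, ABL1, ABL2 and ABL1/ABL2 shRNA samples, a log2 ratio of 1.89 (1.62 to 2.16) for both hairpins over scrambled. It was at 52.9 and 52.3 CPM in the DMSO and 51.3 and 46.9 CPM in the Ponatinib repeats, so the scrambled library was the low one of all 8. This gene was chosen after its values were seen.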
